A study of Mus musculus with 8 samples.

Results

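The genes described here are 42 stellate cell markers and extracellular matrix genes, chosen by symbol from 35638 genes measured in mouse liver. The list holds 13 genes that mark stellate cell identity and 29 genes of collagens, other matrix proteins and stellate cell activation, and every symbol was found once in the table. The tissue was frozen liver of mice aged 90 days after birth, whose background mixed the strains C57/B6 and 129. The 4 samples called WT carried Arid1a Fl/Fl alleles without Cre, and the 4 samples called KO carried the same Fl/Fl alleles together with Alb-cre. Arid1a encodes a component of SWI/SNF, a complex that remodels chromatin, and Alb-cre expresses Cre recombinase under the albumin promoter in hepatocytes, so stellate cells are not the cells in which deletion is directed. The comparison asks how the liver transcriptome differs when hepatocytes lose Arid1a. The labels do not say that the replicates came from separate animals, and p-values therefore reflect sample-to-sample spread that may be partly technical.

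Levels are in FPKM, which corrects fragments for gene length and library size. Depth, estimated from the steps of low values, was roughly 12500000 to 15200000 reads per library. Arid1a itself was at 3.998 to 8.38 FPKM in WT and 2.59 to 3.46 FPKM in KO, with no overlap, although it did not pass the threshold of the test across all genes (limma adjusted p = 0.316). Hepatocyte transcripts dominated every library, with Alb, which encodes albumin, at 20104 to 27121 FPKM in WT and 23165 to 31604 FPKM in KO. Markers of stellate cells were present at far lower levels: Lrat, Reln, Ecm1, Hgf, Dcn and Colec11 were above 0 in all 8 libraries, while Des and Hand2 were each listed at 0 in 2 WT libraries. Myh11, the smooth muscle myosin heavy chain gene, was at 0.0583 FPKM or less. A piece of liver mixes all of these cells, and in such bulk RNA a larger number of stellate cells cannot be told apart from more RNA per stellate cell.

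Hepatic stellate cells are the pericytes of the liver sinusoid. In the healthy liver they lie between hepatocytes and endothelium and store vitamin A as retinyl esters. After injury, signals such as TGF-beta and PDGF can turn them into contractile myofibroblasts that secrete fibrillar collagen, and these cells are the main source of scar matrix in liver fibrosis. Matrix is also laid down in the healthy organ, as basement membrane collagen IV around vessels and as the small proteoglycans that bind collagen fibrils.

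Promoter sequences of 5 of these genes are shown because their values did not overlap between the genotypes and they cover several roles. Lrat encodes the retinyl ester synthase of stellate cells, Ecm1 a secreted matrix glycoprotein, Rgs5 a regulator of G protein signalling in pericytes, Bgn the proteoglycan biglycan, and Col3a1 the chain of collagen III. Each run is the 250 bases before the annotated start, 5′ to 3′ on the gene's own strand, from RefSeq on GRCm38.p6, the assembly that mm10 names: chr3:82903975-82904224 on the minus strand for Lrat, chr3:95739570-95739819 on the minus strand for Ecm1, chr1:169655251-169655500 on the plus strand for Rgs5, chrX:73483351-73483600 on the plus strand for Bgn and chr1:45311288-45311537 on the plus strand for Col3a1. Capitals mark matches on either strand, merged where they overlap. The TATA box was searched as TATAAA. The box that binds the factor NF-Y was searched as CCAAT. The GC box, bound by Sp1 and related factors, was searched as GGGCGG. The CArG box of serum response factor was also searched and matched none of these 5.
Lrat: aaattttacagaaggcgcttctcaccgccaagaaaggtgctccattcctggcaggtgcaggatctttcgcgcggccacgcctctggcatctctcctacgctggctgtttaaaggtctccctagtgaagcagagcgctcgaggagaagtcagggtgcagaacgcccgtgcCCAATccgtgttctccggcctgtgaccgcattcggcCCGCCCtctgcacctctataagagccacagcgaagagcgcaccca
Ecm1: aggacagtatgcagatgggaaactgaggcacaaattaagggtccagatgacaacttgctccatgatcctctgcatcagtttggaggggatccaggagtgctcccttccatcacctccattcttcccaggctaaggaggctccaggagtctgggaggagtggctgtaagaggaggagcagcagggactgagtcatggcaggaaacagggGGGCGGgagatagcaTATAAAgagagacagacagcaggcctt
Rgs5: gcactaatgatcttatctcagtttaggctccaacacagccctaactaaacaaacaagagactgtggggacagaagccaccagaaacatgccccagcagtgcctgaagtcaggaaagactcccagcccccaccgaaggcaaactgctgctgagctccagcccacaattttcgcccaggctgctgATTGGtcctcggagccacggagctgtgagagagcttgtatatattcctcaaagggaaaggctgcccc
Bgn: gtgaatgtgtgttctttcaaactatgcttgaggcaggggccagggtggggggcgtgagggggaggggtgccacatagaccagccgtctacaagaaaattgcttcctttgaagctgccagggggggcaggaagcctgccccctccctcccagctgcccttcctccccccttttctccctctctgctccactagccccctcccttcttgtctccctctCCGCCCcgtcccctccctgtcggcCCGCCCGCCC
Col3a1: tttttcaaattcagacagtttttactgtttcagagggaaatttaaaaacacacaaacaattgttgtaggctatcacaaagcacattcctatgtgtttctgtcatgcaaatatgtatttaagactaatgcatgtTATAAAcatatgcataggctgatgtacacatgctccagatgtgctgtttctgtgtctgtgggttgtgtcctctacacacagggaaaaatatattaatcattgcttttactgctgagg

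The 5 promoters shared no single arrangement of these letters. Ecm1 and Col3a1 held a TATA box, which 12.4% of all 32851 promoters of the same length held, and the Lrat and Rgs5 runs held a CCAAT box, found in 33.8% of all. A GC box was present in Lrat, Ecm1 and Bgn, against 32.7% of all promoters. The share of G and C ran from 35.2% in Col3a1 to 64.4% in Bgn, around a median of 52.4% over all promoters. Of the 30 member genes that matched the table, 4 held a TATA box, 11 a CCAAT box, 17 a GC box and 1 (Lama2) a CArG box, the last being found in 1.47% of all promoters. Such a match describes letters and is not evidence of binding.

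Across the list, levels were higher in KO in most genes, at low abundance, and the test across all genes called 1 of them. Col14a1, the gene of collagen XIV, rose in KO, a gene that reached the test's minimum level through KO. The mean of log2(FPKM + 1) was higher in KO for 40 of the 42 genes, with a median change of 0.27, while 51.5% of the 27571 genes above 0 in any library were higher and their median change was 0.0016. Counts of higher and lower means refer to this log2 scale throughout, and on the FPKM scale Mmp2 among the 42 and Loxl4 among the biosynthesis genes had a mean slightly lower in KO. In 20 of the 42 genes (47.6%) the lowest KO library was above the highest WT library, against 3.57% of all genes above 0, and in 0 of them did all KO libraries lie below WT, against 2.43%. Among members with a mean under 1 FPKM this held for 14 of 32 (3.92% of all genes at that level), and among the others for 6 of 10 (3.05%).

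The test across all genes was limited to genes whose 8 libraries averaged 1 FPKM or more, which 10 members did. Only 4 of these 10 had a WT mean of at least 1 FPKM, so 6 were tested through their level in KO, and a count over the 10 does not stand for the 42. With limma and Benjamini-Hochberg adjustment, 1 of the 10 was higher (0.408% of 11266 genes were) and 0 were lower (0.355%), while 9 had an unadjusted p under 0.05 and a higher level (4.99% of the 11266). When no minimum was set, 0 of the 42 passed over 27571 genes (0.116% were called higher and 0.0943% lower), and 24 had an unadjusted limma p under 0.05, all higher (6.02% of the 27571). Fold changes of log2(FPKM + 1) understate the change of genes this low, so ratios of mean FPKM are also given.

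**Figure D1:**
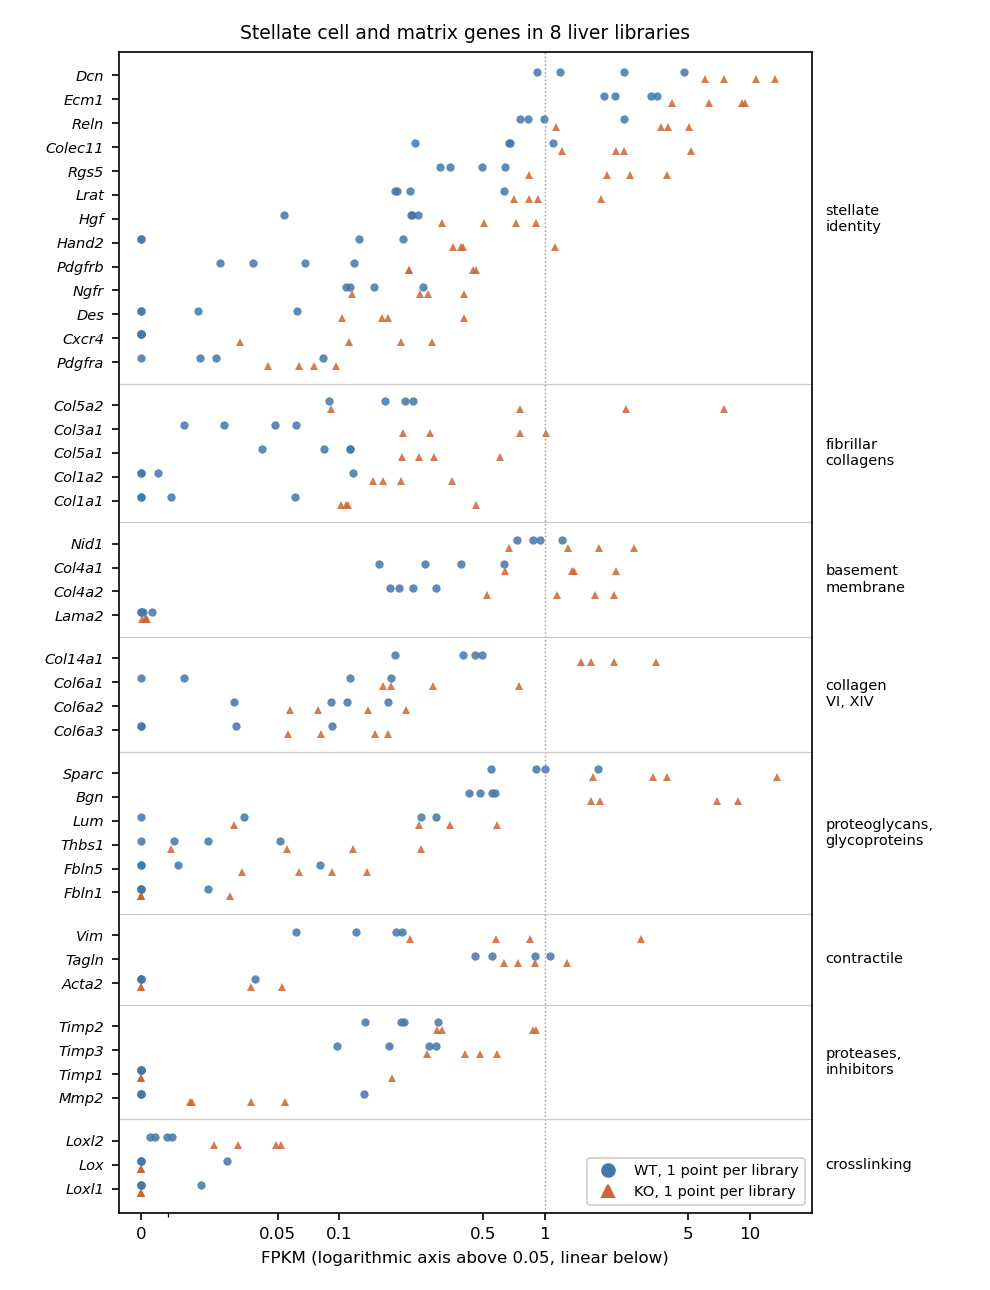
FPKM (logarithmic axis above 0.05, linear below) of each of the 42 genes in the 4 WT libraries (circles) and 4 KO libraries (triangles), grouped by role, with a dotted line at 1 FPKM, the minimum mean for the test. KO points lie to the right of all WT points in 20 genes, most of them stellate identity genes and collagens. Lox, Loxl1, Acta2, Fbln1 and Lama2 sit at or near 0 in both groups, and Timp1 is at 0 except in KO 1 (0.180 FPKM).

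Among the identity genes, Lrat of vitamin A storage, the secreted factors Dcn, Ecm1, Hgf and Colec11 and the pericyte genes Rgs5 and Pdgfrb were higher in each KO library than in any WT library. Of the 13 genes, 10 had no overlap between the genotypes (3.57% of all genes had none with KO above), and 13 of 13 had a higher mean in KO (51.5% of all genes) with a median log2 change of 0.51. Of the 5 tested, 0 passed the adjusted threshold (0.408% of all genes tested were called higher). Their summed level was 5.27, 5.38, 10.8 and 11.8 FPKM in WT 1 to WT 4 and 40.7, 19.6, 22.0 and 31.4 FPKM in KO 1 to KO 4, a 3.43-fold ratio of the means.

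Values are listed in the order of libraries 1 to 4 of each group from here on. Lrat measured 0.190, 0.220, 0.631 and 0.187 FPKM in WT, and 1.87, 0.837, 0.709 and 0.929 FPKM in KO. WT 3 stood near the lowest KO library, and the ratio of the means was 3.54. Dcn, which encodes the collagen-binding proteoglycan decorin, had the highest mean over all libraries among the identity genes, at 0.917, 1.19, 2.45 and 4.78 FPKM in WT and 13.2, 7.44, 6.04 and 10.7 FPKM in KO. The groups did not overlap, the means were 2.33 ± 1.76 and 9.32 ± 3.21 FPKM (SD, n = 4 each), and the log2 change was 1.72 with a limma adjusted p of 0.0866. WT 4 was the WT library closest to KO, and without it the change was 2.03 with a limma adjusted p of 0.0273, so this library decided the call. Ecm1 was at 2.21, 1.96, 3.30 and 3.51 FPKM in WT and 9.40, 4.17, 6.34 and 9.12 FPKM in KO. KO 2 was the lowest KO library, the log2 change was 1.11 with a limma adjusted p of 0.122, and without KO 2 it was 1.32 with 0.0419.

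Colec11, the gene of a secreted collectin of innate immunity, was at 0.668, 0.234, 0.676 and 1.10 FPKM in WT and 5.15, 1.21, 2.24 and 2.44 FPKM in KO. KO 2 lay just above WT 4, and the log2 change of 1.10 had a limma adjusted p of 0.188. Reln, which encodes the large secreted glycoprotein reelin, was at 0.760, 0.993, 2.43 and 0.826 FPKM in WT and 5.02, 3.70, 1.14 and 3.99 FPKM in KO. Here the groups overlapped, since WT 3 exceeded KO 3, and the limma adjusted p was 0.374. Hgf, the gene of hepatocyte growth factor, was at 0.0538, 0.226, 0.240 and 0.224 FPKM in WT and 0.903, 0.506, 0.316 and 0.726 FPKM in KO, a 3.30-fold ratio of the means without overlap. Hand2, a transcription factor gene of stellate cells, was listed at 0 in WT 1 and WT 2, measured 0.124 and 0.205 FPKM in WT 3 and WT 4, and ran at 1.13, 0.393, 0.359 and 0.398 FPKM in KO. Des, which encodes the intermediate filament desmin, was listed at 0 in WT 2 and WT 3, measured 0.0211 and 0.0624 FPKM in WT 1 and WT 4, and ran at 0.407, 0.103, 0.173 and 0.161 FPKM in KO.

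The receptor and pericyte genes differed among themselves. Pdgfrb, the PDGF receptor gene of pericytes and stellate cells, was at 0.0289, 0.0409, 0.0681 and 0.118 FPKM in WT and 0.446, 0.218, 0.217 and 0.463 FPKM in KO, with no overlap and a 5.25-fold ratio of the means. Pdgfra, the related receptor gene, reached 0.0834 FPKM in WT against 0.0965 FPKM in KO, and its groups overlapped. Rgs5 was at 0.310, 0.346, 0.644 and 0.496 FPKM in WT and 2.60, 0.836, 3.95 and 2.003 FPKM in KO. It was highest in KO 3 rather than KO 1, its log2 change was 1.13 with a limma adjusted p of 0.141, and without KO 2 it was 1.38 with 0.0272. Ngfr, the p75 neurotrophin receptor gene, overlapped between the groups, at 0.108 to 0.256 FPKM in WT and 0.115 to 0.406 FPKM in KO. Cxcr4, a chemokine receptor gene that leukocytes also express, was listed at 0 in all of WT and measured 0.282, 0.0363, 0.199 and 0.111 FPKM in KO, which corresponds to about 16.0 reads over the 4 KO libraries.

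The fibrillar collagens, which form the fibres of scar and of normal stroma, were at very low levels in WT and higher in KO. All 5 had a higher mean in KO (median log2 change 0.29), 4 of 5 did not overlap (3.57% of all genes), and Col5a2, the 1 gene tested, did not pass the threshold. Col3a1 had the largest ratio of these 4, at 0.0158, 0.0303, 0.0492 and 0.0612 FPKM in WT and 1.016, 0.205, 0.757 and 0.278 FPKM in KO. That is a 14.4-fold ratio of the means, or about 20.03 against 311 reads summed over the 4 libraries of a group. Col1a1 and Col1a2 encode the chains of collagen I. Col1a1 was listed at 0 in WT 1 and WT 3, measured 0.0112 and 0.0605 FPKM in WT 2 and WT 4, and was at 0.462, 0.108, 0.110 and 0.102 FPKM in KO. KO 1 stood apart from the other KO libraries, and the counts behind these values were about 5.95 reads in WT and 72.3 in KO. Col1a2 was listed at 0 in WT 1 and WT 2, measured 0.116 and 0.00619 FPKM in WT 3 and WT 4, and ran at 0.355, 0.163, 0.145 and 0.200 FPKM in KO.

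Collagen V chains, which nucleate collagen fibrils, differed in their pattern. Col5a1 was at 0.0445, 0.113, 0.112 and 0.0839 FPKM in WT and 0.608, 0.244, 0.203 and 0.289 FPKM in KO, highest in KO 1 like most of the list. Col5a2 was at 0.209, 0.0890, 0.167 and 0.229 FPKM in WT and at 0.0915, 2.49, 0.762 and 7.50 FPKM in KO, so it was lowest in KO 1 and highest in KO 4. The groups overlapped, the means were 0.174 ± 0.0620 and 2.71 ± 3.35 FPKM (SD, n = 4 each), and the limma adjusted p was 0.487. In KO 4 the Col5a1 level was 0.0385 times that of Col5a2, and in KO 1 it was 6.65 times that of Col5a2. Col3a1 (45311538 to 45349706) and Col5a2 (45374321 to 45503282) are neighbours on chromosome 1 of GRCm38, and their order across the KO libraries differed.

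**Figure D2:**
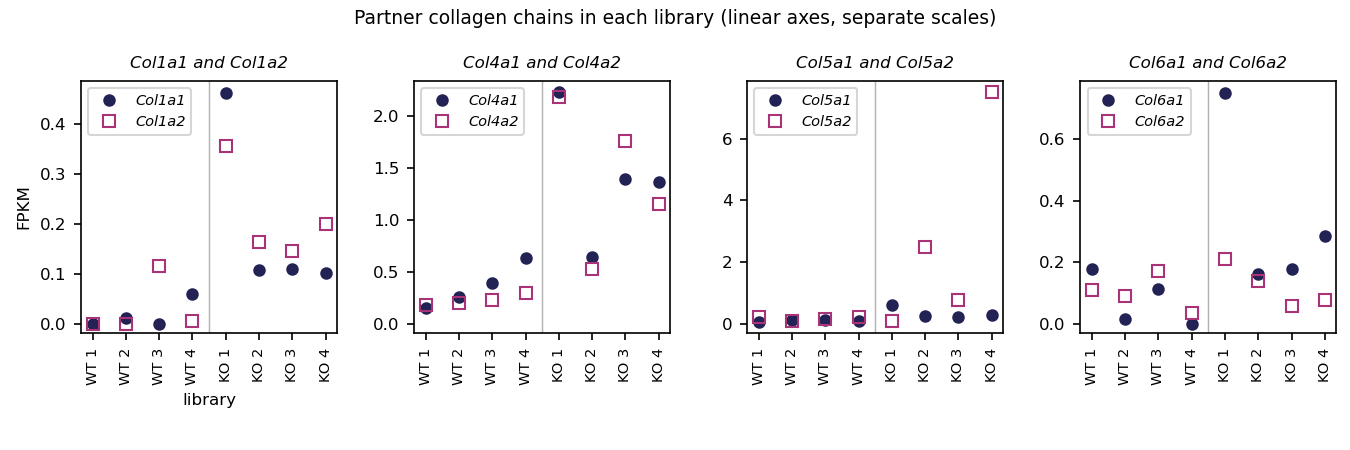
FPKM of partner collagen chains in each of the 8 libraries, 1 panel per pair with its own linear scale. Col4a1 and Col4a2 lie close together in all 4 KO libraries, whereas Col5a2 reaches 7.50 FPKM in KO 4 with Col5a1 at 0.289 FPKM.

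Of the basement membrane genes, the collagen IV pair had the largest ratios between the genotypes, while Nid1 had the highest level. Col4a1 and Col4a2 encode the chains of the collagen IV heterotrimer and lie head to head on chromosome 8, with Col4a1 at 11198423 to 11312826 on the minus strand and Col4a2 at 11312805 to 11449287 on the plus strand (GENCODE M21, GRCm38). Col4a1 was at 0.155, 0.261, 0.390 and 0.636 FPKM in WT and 2.23, 0.641, 1.39 and 1.36 FPKM in KO. WT 4 and KO 2 were almost level, so its lack of overlap is narrow. Col4a2 was at 0.177, 0.195, 0.229 and 0.294 FPKM in WT and 2.18, 0.524, 1.76 and 1.15 FPKM in KO, a 6.27-fold ratio of the means. The ratio of Col4a1 to Col4a2 was 1.023, 1.22, 0.788 and 1.18 in KO 1 to KO 4 and 0.878, 1.34, 1.70 and 2.16 in WT 1 to WT 4. Their 5′ exons overlap on opposite strands, and whether counting used strand is not stated.

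The other basement membrane members showed no separation. Nid1, which encodes the laminin-binding linker nidogen, was at 0.948, 0.733, 1.21 and 0.878 FPKM in WT and 1.85, 0.672, 2.72 and 1.30 FPKM in KO. KO 2 was below every WT library, and the limma adjusted p was 0.706. Lama2, a laminin chain gene better known from muscle, stayed at 0.00425 FPKM or less in every library.

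Collagen XIV, a collagen that sits on the surface of fibrils, gave the single call of the list. Col14a1, which lies on chromosome 15 from 55307750 to 55520803 (GRCm38), measured 0.402, 0.188, 0.459 and 0.496 FPKM in WT and 3.48, 1.502, 1.68 and 2.17 FPKM in KO. Each KO library was far above each WT library. The means were 0.386 ± 0.138 and 2.21 ± 0.893 FPKM (SD, n = 4 each), a 5.72-fold ratio, and the log2 change of 1.18 ± 0.22 (SE) had a limma adjusted p of 0.0452. The WT mean was under the 1 FPKM minimum, so the gene was tested through its level in KO, and the call sits close to the threshold. It was lost with a pseudocount of 0.1 or 5 FPKM (limma adjusted p = 0.0526 and 0.0895), with no minimum (0.112), with equal sums (0.0765), with quantile normalization (0.0605), with the replicate number as a block (0.113), and without any of WT 1, WT 2, WT 3, WT 4, KO 3 or KO 4 (0.123, 0.132, 0.123, 0.0781, 0.0933 and 0.132). Without KO 1 its mean fell under the minimum and the change was 1.004, and without KO 2 the limma adjusted p was 0.0371.

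Collagen VI forms the microfibrils around cells, and the groups overlapped in Col6a1, Col6a2 and Col6a3. Col6a1 was at 0.178, 0.0158, 0.113 and 0 FPKM in WT and 0.751, 0.163, 0.177 and 0.287 FPKM in KO, with WT 1 above KO 2 and KO 3. The ratio of its means was 4.49. Col6a2 was at 0.0339 to 0.172 FPKM in WT and 0.0576 to 0.211 FPKM in KO, with a 1.20-fold ratio of the means. Col6a3 was listed at 0 in WT 1 and WT 3 and ran at 0.0564 to 0.173 FPKM in KO, and WT 4, at 0.0922 FPKM, lay within that range. Its means had a 3.62-fold ratio.

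Of the 6 proteoglycans and matrix glycoproteins, Bgn separated the genotypes. It was at 0.427, 0.483, 0.551 and 0.570 FPKM in WT and 8.73, 1.69, 1.85 and 6.88 FPKM in KO. The WT libraries were tightly grouped, KO 1 and KO 4 were well above KO 2 and KO 3, and the log2 change was 1.71 with a limma adjusted p of 0.126. Sparc, which encodes the collagen-binding matricellular protein osteonectin, was the most abundant gene of this role, at 0.546, 0.902, 1.01 and 1.82 FPKM in WT and 13.5, 1.72, 3.95 and 3.35 FPKM in KO. WT 4 exceeded KO 2, so the groups overlapped, and the limma adjusted p was 0.275. The KO mean was 5.63 ± 5.32 FPKM (SD, n = 4), with KO 1 far above it. Lum, the gene of the proteoglycan lumican, was at 0 to 0.296 FPKM in WT and 0.0341 to 0.584 FPKM in KO. Fbln5, of the elastic fibre protein fibulin 5, reached 0.0804 FPKM in WT against 0.137 FPKM in KO, and Thbs1, of the TGF-beta activator thrombospondin 1, reached 0.0514 and 0.250 FPKM. Fbln1 was above 0 in WT 3 and KO 2 alone, at 0.0247 and 0.0326 FPKM.

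Activation genes were split. Vim, which encodes the mesenchymal intermediate filament vimentin, measured 0.121, 0.190, 0.0614 and 0.203 FPKM in WT and 0.849, 0.220, 2.94 and 0.582 FPKM in KO. The groups did not overlap, by a narrow margin at KO 2, and the highest value was in KO 3. Vimentin is also made by macrophages and endothelium. Acta2, the smooth muscle actin gene that defines myofibroblasts, was listed at 0 in 3 WT and 2 KO libraries and reached 0.0418 FPKM in WT 2 and 0.0524 and 0.0404 FPKM in KO 1 and KO 3, about 1.23 reads over the 4 WT libraries and 2.80 over the 4 KO libraries. With so few reads, a small difference in Acta2 was not detectable. Hand2, of similar exon length (2351 against 2196 nt), had about 9.99 reads in WT and 76.0 in KO, and a rise of that size was not seen in Acta2. Tagln, the gene of the actin-binding protein transgelin, was at 0.459, 1.06, 0.552 and 0.898 FPKM in WT and 1.28, 0.637, 0.744 and 0.894 FPKM in KO. The groups overlapped. Exons of Tagln overlap those of Pcsk7 on the opposite strand, which was at 3.23 to 4.06 FPKM in WT and 3.15 to 4.42 FPKM in KO, so reads of the pair cannot be told apart with certainty. Exons of Des, Hand2, Reln, Col5a1 and Loxl2, among others, also overlap a gene on the opposite strand.

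Genes of matrix breakdown and crosslinking stayed low. Timp2, an inhibitor of metalloproteinases and the most abundant of its role, was at 0.199, 0.133, 0.303 and 0.205 FPKM in WT and 0.880, 0.299, 0.316 and 0.911 FPKM in KO, with WT 3 just above KO 2. Timp3, a matrix-bound inhibitor, was at 0.0969 to 0.294 FPKM in WT and 0.268 to 0.583 FPKM in KO, also overlapping. Timp1, the inhibitor that activated stellate cells secrete, was above 0 in KO 1 alone, at 0.180 FPKM or about 2.20 reads. Mmp2, the gelatinase gene of stromal cells, was above 0 in WT 4 at 0.132 FPKM and in the KO libraries at 0.0181 to 0.0544 FPKM. The lysyl oxidases crosslink collagen and elastin. Lox was listed at 0 everywhere except WT 1 (0.0315 FPKM) and Loxl1 everywhere except WT 3 (0.0221 FPKM). Loxl2 did not overlap, at 0.0114, 0.00949, 0.00534 and 0.00328 FPKM in WT and 0.0269, 0.0522, 0.0357 and 0.0494 FPKM in KO, but this rested on about 2.08 reads in WT and 12.9 in KO. Each WT value was below 0.0146 FPKM, the level of about 1 read of this gene in WT 1.

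**Figure D3:**
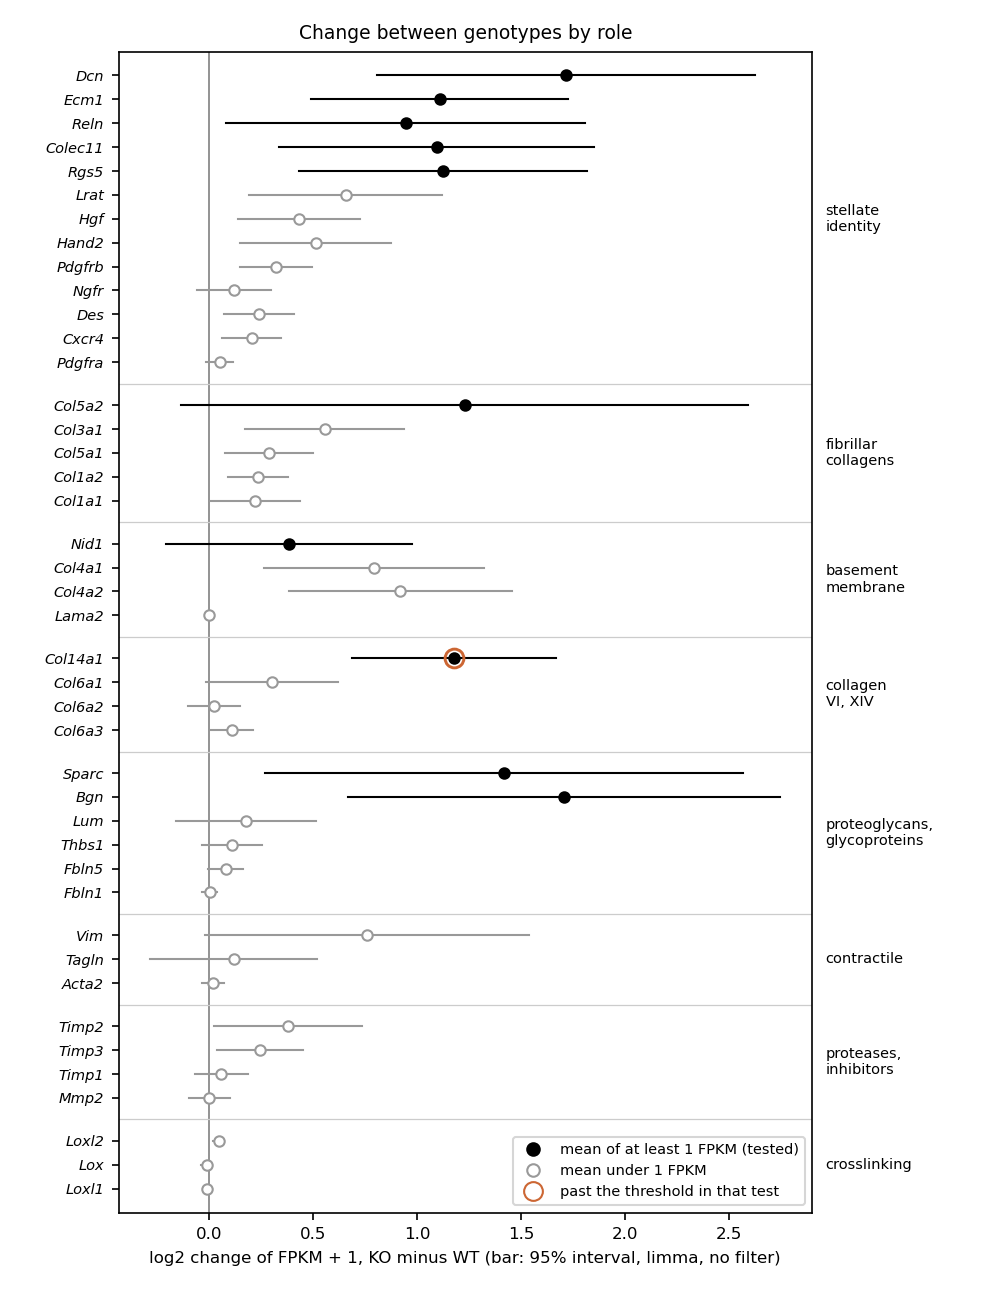
Log2 change of FPKM + 1 from WT to KO for each of the 42 genes, grouped by role, with 95% intervals from the limma fit without a minimum. Filled points mark the 10 genes tested with the minimum, and the ring marks Col14a1, the gene past the threshold there at a change of 1.18. Acta2, Mmp2, Lox, Loxl1, Fbln1 and Lama2 lie at or near 0.

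Set side by side, the 13 identity genes and the 29 matrix and activation genes both had higher summed levels in KO. The 29 genes summed to 4.57, 4.87, 6.11 and 6.92 FPKM in WT 1 to WT 4 and to 40.0, 12.3, 20.6 and 28.6 FPKM in KO 1 to KO 4, a 4.52-fold ratio of the means against 3.43-fold for the identity genes. Of the 29, 27 had a higher mean in KO, 10 had no overlap (3.57% of all genes), and the median log2 change was 0.22, against 10 of 13 without overlap and a median of 0.51 for the identity genes. The difference between these groups was not tested.

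The KO libraries were not equal. KO 1 was the highest KO library in 26 of the 42 genes, while over all genes above 0 it was the highest in 23.3%. KO 2 was the lowest KO library in 20 of the 42, against 22.8% of all genes, and KO 3 in 13, against 15.5%. Among WT libraries, WT 4 was the highest in 19 genes and WT 3 in 12. The count of genes without overlap was 25 without KO 2, 21 without KO 1, and 20 to 24 when any other library was left out, with 4.56 to 6.92% of all genes without overlap in the same direction. It was 15 when libraries were scaled to equal sums (2.67% of all genes) and 22 with median ratio scaling (3.97%).

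Endothelial and macrophage markers also had higher summed levels in each KO library than in any WT library. The 10 sinusoidal endothelial markers all had a higher mean in KO, 6 without overlap (3.57% of all genes), and 0 of the 8 tested passed the threshold, Stab1 having the smallest limma adjusted p, 0.104. They summed to 3.03, 6.53, 7.29 and 9.90 FPKM in WT and 30.6, 16.2, 31.0 and 21.2 FPKM in KO. The 9 Kupffer cell and macrophage markers all had a higher mean in KO, 8 without overlap (3.57% of all genes), and 0 of the 8 tested passed, Cd5l having the smallest limma adjusted p, 0.0692. They summed to 5.36, 6.502, 9.82 and 10.01 FPKM in WT and 63.1, 15.4, 114 and 93.4 FPKM in KO. KO 2 was lowest in 9 of these 9 and KO 1 highest in 0, whereas KO 1 was highest in 9 of the 13 stellate identity genes. Among the 10 endothelial markers, KO 1 was highest in 5 and KO 2 lowest in 8. The 5 cholangiocyte markers summed to 0.269 to 0.792 FPKM in WT and 0.527 to 6.82 FPKM in KO. The KO sums were mostly Spp1, which macrophages also make, while Krt19 was listed at 0 in all libraries except KO 4. Sox9 went the other way without overlap (2.43% of all genes did), at 0.134 to 0.462 FPKM in WT and 0.0157 to 0.123 FPKM in KO. The 6 lymphocyte markers summed to 0.306 FPKM or less, and the 3 smooth muscle markers to 0.136 to 0.308 FPKM in WT and 0.307 to 2.48 FPKM in KO. These KO sums were mostly Smtn except in KO 2, where Cnn1 was higher (0.163 against 0.103 FPKM). The 7 portal fibroblast and mesothelial markers summed to 0.346 to 0.932 FPKM in WT and 0.176 to 0.419 FPKM in KO. Entpd2 made up the whole of that last sum in WT, at 0.346 to 0.932 FPKM, and was at 0.134 to 0.344 FPKM in KO, while 5 of the 6 markers above 0 had a higher mean in KO. The 6 hepatocyte markers had 1.11-fold the summed WT level in KO. The part of these shifts in the stellate and matrix values was not tested.

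**Figure D4:**
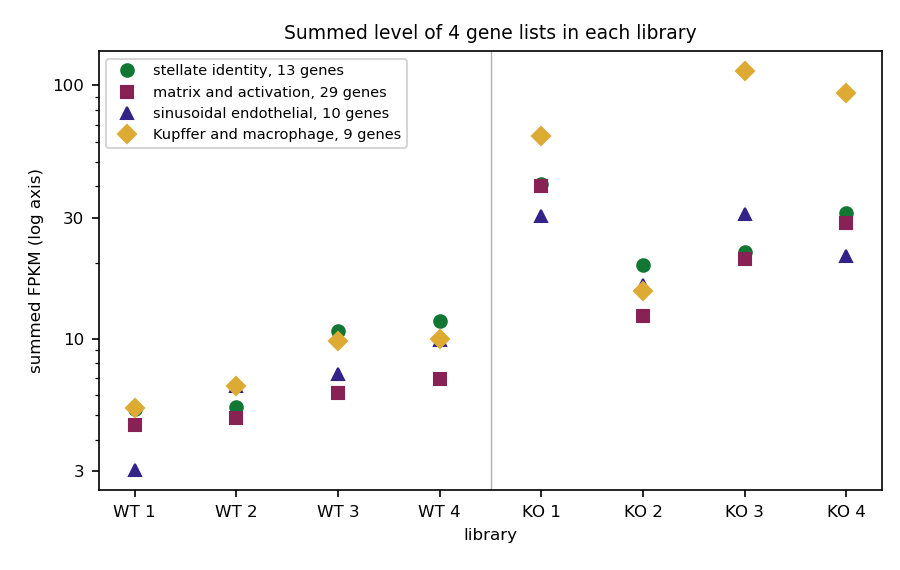
Summed FPKM of the 13 stellate identity genes, the 29 matrix and activation genes, 10 endothelial markers and 9 macrophage markers in each library, on a log axis. All 4 sums are higher in each KO library than in any WT library, KO 2 is the lowest KO library in each, and KO 1 is the highest for the stellate and matrix sums but not for the macrophage sum.

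Further genes of the same biology were read from lists kept apart from the 42, and their counts stand beside 3.57% of all genes without overlap with KO above and 0.408% of tested genes called higher. Of 16 other stellate genes, 15 had a higher mean in KO, 6 had no overlap and 0 of the 4 tested passed the threshold. Vipr1, a neuropeptide receptor gene, had the smallest p among the 4, at 0.111, 0.122, 0.270 and 0.265 FPKM in WT and 1.06, 3.498, 0.554 and 26.8 FPKM in KO (limma adjusted p = 0.424), and like Col5a2 it was highest in KO 4. Of 19 other matrix genes above 0, 16 had a higher mean in KO, 6 had no overlap and 0 of the 4 tested passed. Hspg2, the gene of the basement membrane proteoglycan perlecan, had the smallest p, with a WT mean of 0.982 ± 0.381 FPKM against 2.29 ± 1.17 FPKM in KO (SD, n = 4), and its limma adjusted p was 0.427. The matrix genes that hepatocytes express abundantly overlapped between the groups: Fn1, of fibronectin, was at 248.7 to 411 FPKM in WT and 296 to 455 FPKM in KO (limma adjusted p = 0.880), and Col18a1, of the endostatin precursor, at 146 to 243 and 184 to 215 FPKM (0.812).

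Of 15 collagen biosynthesis genes, 11 had a higher and 4 a lower mean in KO, and 0 of the 6 tested passed the threshold. Without overlap, KO lay above WT in 3 of the 15 and below in 1 (2.43% of all genes lay below). Plod1, a lysyl hydroxylase gene, had the smallest p, averaging 3.97 ± 1.42 FPKM in WT against 6.74 ± 2.52 FPKM in KO (SD, n = 4), and its limma adjusted p was 0.545. Serpinh1, the collagen chaperone gene and 1 of these 3, was at 0.0319 to 0.211 FPKM in WT and 0.317 to 1.3999 FPKM in KO. P4ha2, a prolyl hydroxylase gene, went the other way without overlap, at 0.353 to 0.679 FPKM in WT and 0.0134 to 0.101 FPKM in KO. These last 2 genes were chosen after their values were seen. Of 12 matrix turnover genes above 0, 7 had a higher and 5 a lower mean. Without overlap, KO lay above WT in 3 of them and below in 0. Of the 3 tested, 0 passed, Mmp15, a membrane metalloproteinase gene, having the smallest p. It averaged 5.69 ± 0.458 FPKM in WT against 7.48 ± 2.12 FPKM in KO (SD, n = 4), and its limma adjusted p was 0.699.

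Of 14 profibrotic signal genes, 11 had a higher mean in KO and 1 of the 5 tested passed the threshold. Without overlap, KO lay above WT in 3 of the 14 (3.57% of all genes) and below in 0. Tgfbr2, the type II receptor of TGF-beta, rose from 1.48, 1.21, 1.26 and 1.82 FPKM in WT to 6.06, 6.90, 6.02 and 5.86 FPKM in KO (log2 change 1.57, limma adjusted p = 0.00295). Its 4 KO values were nearly equal and KO 2 was the highest, which held for 3 of the 42 genes. The ligand gene Tgfb1 was at 0.0789 to 0.205 FPKM in WT and 0.955, 0.131, 0.644 and 0.535 FPKM in KO, with KO 2 inside the WT range, and Pdgfb was listed at 0 in WT and was at 0.0228 to 0.426 FPKM in KO. The related ligand genes Tgfb2 and Tgfb3 hardly differed (log2 changes 0.0052 and 0.0086). The 3 genes with a lower mean in KO were Pdgfc, Tgfbr1 and Il13ra1 (log2 changes -0.22, -0.065 and -0.13). Pdgfc was at 0.0352, 0.128, 0.159 and 1.04 FPKM in WT and 0.0129 to 0.196 FPKM in KO, so its lower mean rests on WT 4. Apart from Tgfbr2, the genes of this list were named after their values were seen.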

How the data were processed

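Total RNA of 4 WT and 4 KO liver samples was sequenced. The deposited table holds FPKM values, 1 column per sample and a symbol for each gene. The submitters' processing notes name TopHat, edgeR and mm10. Which program made the FPKM values, from which annotation and with which strand setting, is not given in the sources used here. Columns were assigned to samples through their names and numbers. The KO columns are headed LKO, a short form the labels do not use, and were matched to the KO samples by replicate number. FPKM depends on the abundant transcripts of a library, so alternatives rescale it.

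Values were taken as log2(FPKM + 1) and tested by genotype with limma (version 3.58.1, R version 4.3.3; intensity trend, two-sided, Benjamini-Hochberg adjustment over the whole table, threshold 0.05) for 11266 genes with a mean of at least 1 FPKM. The fit was tested on simulated data. Single members were also compared by exact two-sided permutation over 70 splits. For groups without overlap this permutation test must give its smallest possible p, 0.0286, as it did for the 20 such members. It therefore restates that count, and its p was larger for the other 22.

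Depth was estimated from low values of 12059 genes with 1 transcript of at least 400 nt. Of these values 49.7 to 54.2% lay within 0.1 of a whole read, against 20% by chance for a depth fixed beforehand. The depth was chosen to bring these same values near whole reads, so that share is not an independent check. Reads per gene are FPKM times annotated exon length times this depth, and are approximate. Summed over a group, 14 members had under 10 such reads in WT and 7 in KO. Of the gene IDs 99.4% matched GENCODE M21 (GRCm38), and 30 of 42 members matched a RefSeq promoter. Exons of 14 members overlap a gene on the opposite strand (Col4a1, Col4a2, Col5a1, Des, Hand2, Lama2, Lox, Loxl2, Nid1, Pdgfra, Reln, Tagln, Thbs1 and Timp3). A listed 0 can be a failed estimate, although 8 common housekeeping genes, chosen after the data were seen, held 0 zeros.

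The members, lists and tests were chosen with earlier results of these data known. Values of every sample are given for members past the threshold or without overlap and for the member with the highest mean of each role, and the rest mostly by range. In the other pathway lists the genes past the threshold are named, or the tested gene with the smallest p, and cell type lists are given by counts, sums and single genes chosen after their values were seen. Alternatives were other pseudocounts, minimums, scalings and variance models, a replicate block and leaving out each library. Plots used Python 3.11.15 with matplotlib 3.10.9.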

Additional observations from a re-analysis of the deposited data

Results flagged for a closer look

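In 14 of the 84 groups of 4 libraries, 1 library lay far from the other 3, by a gap past Dixon's critical value. For normally distributed values chance gives such a gap in about 1 of 20 groups. That rate does not hold at the floor, where 1 library above 0 beside 3 at 0 always gives such a gap. In 7 of the 14 the other 3 libraries were at 0: Fbln1 in WT 3 (0.0247 FPKM) and in KO 2 (0.0326), Acta2 in WT 2 (0.0418), Timp1 in KO 1 (0.180), Mmp2 in WT 4 (0.132), Lox in WT 1 (0.0315) and Loxl1 in WT 3 (0.0221).

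WT 3 was far above the other WT libraries in Lrat (0.631 FPKM against 0.187 to 0.220), Reln (2.43 against 0.760 to 0.993) and Col1a2 (0.116 against 0 to 0.00619). WT 1 was far below them in Hgf (0.0538 against 0.224 to 0.240), and WT 4 was above them in Fbln5 (0.0804 against 0 to 0.0136). KO 1 was far above the other KO libraries in Hand2 (1.13 FPKM against 0.359 to 0.398) and Col1a1 (0.462 against 0.102 to 0.110).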

How the results depend on the processing

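The number of members called higher by limma was 1 with all libraries, with median ratio scaling and without the trend, and 0 with a pseudocount of 0.1 or 5 FPKM, no filter, a mean of at least 5 FPKM, equal sums, quantile normalization or the replicate block. It ran from 0 to 3 when a library was left out, with Dcn called without WT 4 and Col14a1, Ecm1 and Rgs5 without KO 2. With no filter it was 0, and 0 to 2 when a library was left out (Col4a2 and Rgs5 without KO 2). The number called lower was 0 in every one of these fits. The median change of the 42 members was 0.27, 1.23 with a pseudocount of 0.1 FPKM and 0.065 with 5 FPKM, where the pseudocount itself sets the scale, and between 0.19 and 0.31 in the fits lacking a library. The filters and the trend do not enter that median. Of the 42 members 36 had a positive change in every alternative that gave them a value, the others being Col6a2, Fbln1, Lama2, Lox, Loxl1 and Mmp2. Timp1, among the 36, is listed at 0 in all other libraries and has no value without KO 1. Of all genes, 46 were higher and 40 lower. Higher calls numbered 27 with a pseudocount of 5 FPKM, 14 with a mean of at least 5 FPKM and 16 with the replicate block, and lower calls 26 with no filter, 13 with a mean of at least 5 FPKM and 8 with the replicate block. Leaving out a library gave 20 to 92 higher and 14 to 44 lower. The cause of these moves was not tested. In the labels, libraries of the same replicate number shared only that number. Their deviations from the group means correlated at 0.096, -0.067, 0.015 and 0.25 for replicates 1 to 4, the last being the highest of all pairs. WT 1, WT 3, WT 4 and KO 4 each correlated best with the other group's library of the same number. WT 2, KO 1, KO 2 and KO 3 did not. Whether the replicate number marks a batch was not tested. The counts without overlap under other settings, and the fit with no filter that left out libraries, were added after the data were seen. The lowest genes, such as Acta2, Timp1, Lox and Loxl1, rest on a few estimated reads in all.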
